A study of Mus musculus with 12 samples.

Results

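Gapdh, Ldhal6b, G6pd2 and Gk are the 4 genes of sugar and glycerol metabolism among the 15 genes that a mouse lncRNA and mRNA microarray carries in many copies under a gene name of their own. The members were taken by their probe names in the scanner files, 1 probe per gene and 20 copies of each probe on every scan, out of 60915 probes counted on the array. The study profiled total RNA depleted of rRNA from the olfactory bulb, hypothalamus, hippocampus and cerebellum of BALB/c mice, all male and 10 weeks old, and gives 3 scans per region and 12 in all. The series text gives 3 mice for the arrays, but the labels tie no scan to an animal, so p-values here measure the spread between arrays and not necessarily between animals. RNA was amplified with random primers and labelled with 1 dye (Cy3), and each region lay at a fixed place on its slide on every scan, so the place on the slide and the region cannot be told apart. Dissected regions are bulk tissue, in which fewer cells of a type and less RNA per cell cannot be told apart. The region labels were not checked against marker genes, because the other probes carry array IDs that nothing used here pairs with gene names.

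As background, Gapdh encodes the glycolytic enzyme that oxidises glyceraldehyde 3-phosphate and passes electrons to NAD, and is among the most used reference genes in brain tissue. Ldhal6b encodes a lactate dehydrogenase A-like protein, a relative of the enzymes that interconvert pyruvate and lactate, and is known mainly from testis. G6pd2 is a retroposed copy of the X-linked G6pdx gene, whose product takes glucose 6-phosphate into the pentose phosphate pathway and so supplies NADPH. Gk encodes glycerol kinase, which phosphorylates glycerol for glycolysis and for the synthesis of glycerolipids. All 4 have close relatives in the genome (Gapdh pseudogenes, Ldha and Ldhb, G6pdx, glycerol kinase-like genes). Whether these probes also bind transcripts of the relatives was not tested, so each value is that of a probe.

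A log2 level below is the mean log2 processed signal of the copies on a scan, without copies that the scanner software marked as outliers, minus the 75th percentile of that scan. Levels are compared between regions for 1 probe, never between probes. Scans of the same region were compared over the 15229 brightest probes, those at or above the 75th percentile of mean log2 signal. The SD of the difference was 0.0278 log2 units between hippocampus replicates 1 and 3 and 0.0263 between cerebellum replicates 1 and 3. Both lay below the smallest median SD of copies within a scan (0.0308). The other pairs of the same region differed by 0.313 to 0.510. Each near-identical pair was therefore averaged and counted as 1 array, which leaves 10 arrays: 3 of olfactory bulb, 3 of hypothalamus, 2 of hippocampus and 2 of cerebellum. Between 87.9% and 93.2% of probes were well above background on the 12 scans, and all 20 copies of each of the 4 genes were so on every scan. No spot was marked saturated. The file headers give 4 scan times: the first holds replicate 1 of every region, the second replicate 2 of every region, the third replicate 3 of olfactory bulb and hypothalamus, and the fourth replicate 3 of hippocampus and cerebellum. The averaged hippocampus and cerebellum arrays are counted under replicate 1 and scan time 1, although their replicate 3 scans were made at time 4. In the 10 arrays, grouping or blocking by scan time is therefore the same as by replicate number.

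Ldhal6b and G6pd2 differed between the 4 regions and Gapdh and Gk did not pass the test. These 2 of 4 members compare with 36.1% of the 56573 probes tested (limma F test over the regions, Benjamini-Hochberg adjusted p under 0.05 over all probes tested). Ldhal6b was highest in the olfactory bulb and G6pd2 in the cerebellum. With scan time as a block 3 of the 4 members passed, Gapdh being the addition, while 54% of all probes then passed. The range from the lowest to the highest region mean was 2.60-fold for Ldhal6b, 1.77-fold for G6pd2, 1.23-fold for Gk and 1.17-fold for Gapdh, beside a median of 1.56-fold over all probes tested. Of the probes tested, 8.64% had a range as small as that of Gapdh or smaller, and 84.7% had one no larger than that of Ldhal6b. These shares are over probes of any signal, and probes of like signal were not compared.

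**Figure D1:**
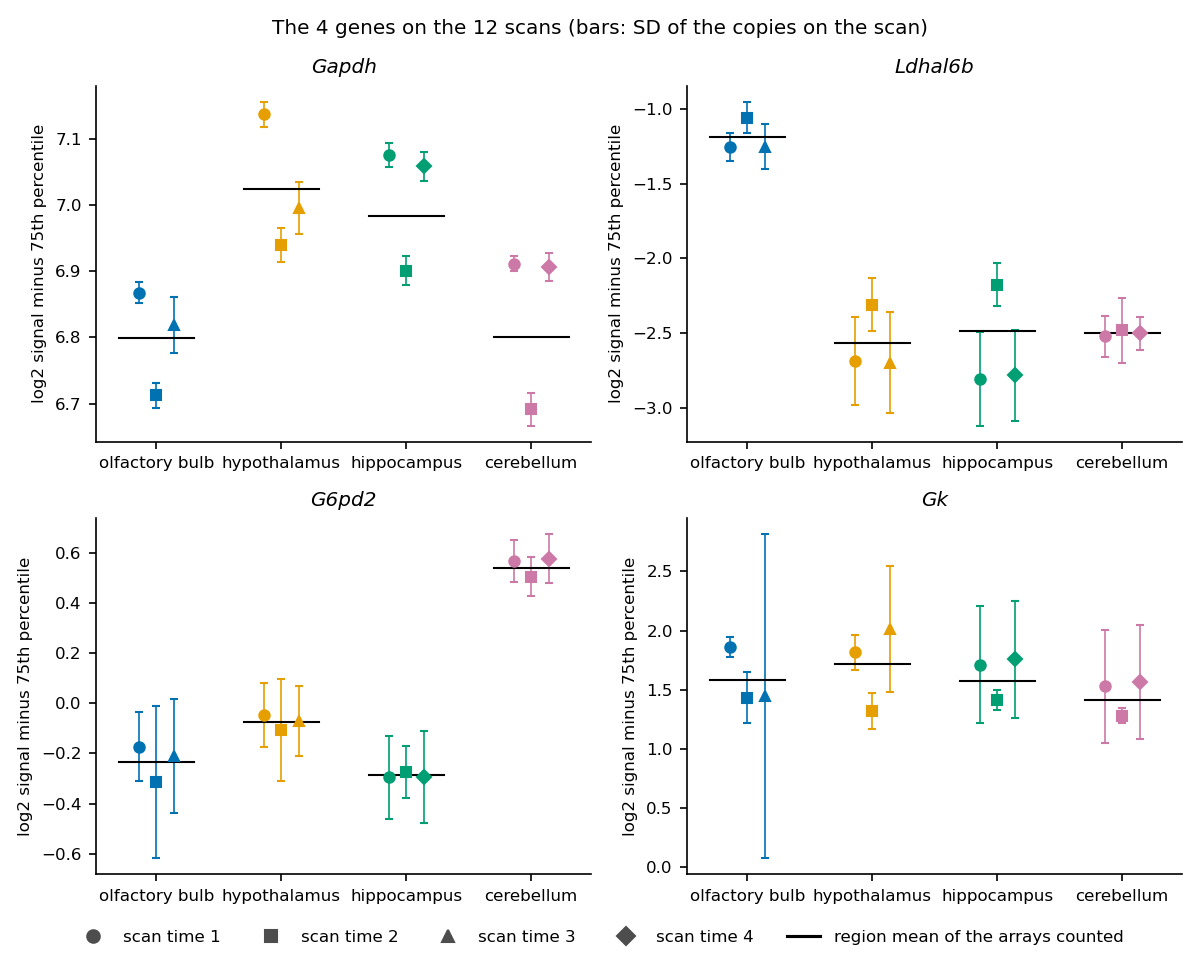
Log2 level of each gene (log2 signal minus the 75th percentile of the scan) on the 12 scans, by region. Points are scans, their shape is the scan time, bars are the SD of the copies on that scan without those marked as outliers, and lines are region means of the arrays counted, such as -1.19 for Ldhal6b in the olfactory bulb and 0.54 for G6pd2 in the cerebellum. The points of these 2 groups lie above those of all other regions, and the widest copy bar is that of Gk on replicate 3 of the olfactory bulb (1.37 log2 units).

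Gapdh, the glycolytic gene, had a mean signal between 138184 and 188856 over the scans. Its log2 levels were 6.87, 6.71 and 6.82 in the olfactory bulb and 7.14, 6.94 and 7.00 in the hypothalamus. They were 7.07 and 6.90 in the hippocampus and 6.91 and 6.69 in the cerebellum. Replicate 2 was the lowest array of its region in all 4 regions. Under this scaling the hypothalamus lay above olfactory bulb and cerebellum without overlap, and the hippocampus above the olfactory bulb. The other pairs of regions overlapped. With 2 or 3 arrays per region such gaps carry no test, and the share of all probes with like gaps was not counted. The region means were 7.02 ± 0.10 (SD of 3 arrays) in the hypothalamus, 6.98 ± 0.12 (SD of 2 arrays) in the hippocampus, 6.80 ± 0.15 (SD of 2 arrays) in the cerebellum and 6.80 ± 0.08 (SD of 3 arrays) in the olfactory bulb. The difference between hypothalamus and olfactory bulb was 0.22 log2 units with an SE of 0.10, and the test over the 4 regions gave an adjusted p of 0.281 (limma).

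Within a scan time the order of the Gapdh levels was steadier than across scan times. At scan time 1 the olfactory bulb lay at -0.27 and at scan time 2 at -0.23 relative to the hypothalamus, and at scan time 3 the difference was -0.18. The hypothalamus exceeded the cerebellum by 0.23 at scan time 1 and by 0.25 at scan time 2. Olfactory bulb minus cerebellum changed sign, from -0.04 at scan time 1 to 0.02 at scan time 2. Scan time 3 held only olfactory bulb and hypothalamus. With scan time as a block the adjusted p over the 4 regions fell to 0.00808 (limma), and both hypothalamus and hippocampus exceeded olfactory bulb and cerebellum by 0.18 to 0.23 log2 units. Those 4 contrasts had adjusted p-values from 0.00531 to 0.0230 in that fit (limma). Over the 10 arrays, region alone accounted for 60.9% of the variance of Gapdh and scan time alone for 37.5%, beside medians of 59.5% and 24.0% over all probes.

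The direction of the small Gapdh differences also depended on the scaling between arrays. With the median of each scan in place of the 75th percentile, hypothalamus (8.92) and hippocampus (8.92) again lay above olfactory bulb (8.71) and cerebellum (8.70). Under quantile normalization the cerebellum was highest at 17.43 and the olfactory bulb lowest at 17.19, and the test over the regions did not pass (adjusted p = 0.444, limma). Without any scaling the olfactory bulb was highest at 17.42 and the hypothalamus lowest at 17.15, so that hypothalamus minus olfactory bulb turned to -0.26. That contrast passed in this direction (adjusted p = 0.0350, limma), opposite to the call with scan time as a block, while the test over the 4 regions did not pass (adjusted p = 0.114, limma). Relative to the mean of the 11 other named genes the hippocampus was highest at 3.20 and the olfactory bulb lowest at 2.92, and the test passed (adjusted p = 0.0205, limma). The median of all probes itself moved by up to 0.46 log2 units between regions without scaling and by up to -0.28 relative to the other named genes, and by under 0.1 with the other scalings tried.

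**Figure D2:**
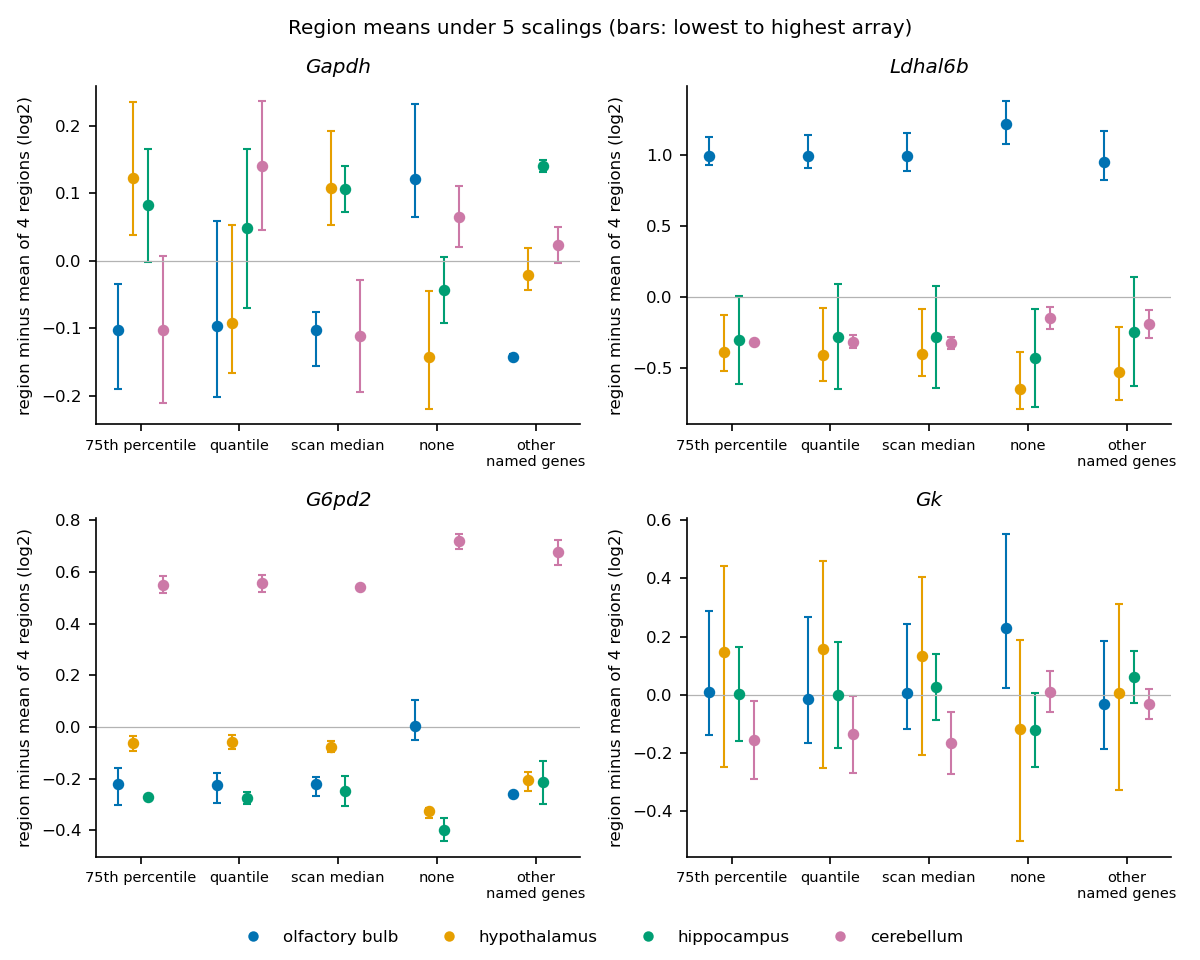
Region means of each gene minus the mean of the 4 regions (log2 units) under 5 ways of scaling the arrays. Bars run from the lowest to the highest array of a region. The olfactory bulb is highest for Ldhal6b and the cerebellum for G6pd2 under all 5, whereas the highest region of Gapdh is hypothalamus, cerebellum, hypothalamus, olfactory bulb and hippocampus in turn from left to right.

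The array holds other probes for the same transcript among its control spots, 10 copies each, which entered no test. The control probe labelled for the 3′ end of mouse Gapdh had log2 levels of 5.98 ± 0.11 (SD of 3 arrays) in the olfactory bulb, 6.12 ± 0.13 (SD of 3 arrays) in the hypothalamus, 6.13 ± 0.16 (SD of 2 arrays) in the hippocampus and 6.03 ± 0.18 (SD of 2 arrays) in the cerebellum. The one labelled for the 5′ end had 4.77 ± 0.04 (SD of 3 arrays), 4.97 ± 0.04 (SD of 3 arrays), 4.96 ± 0.02 (SD of 2 arrays) and 4.85 ± 0.07 (SD of 2 arrays) in the same order. Both had higher means in hypothalamus and hippocampus than in olfactory bulb and cerebellum, as the named Gapdh probe did under this scaling. Not all control probes labelled for human and rat Gapdh, given at the end, had this order.

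Ldhal6b, the lactate dehydrogenase relative, had a mean signal between 169.7 and 770.9 over the scans. Its log2 levels were -1.25, -1.06 and -1.25 in the olfactory bulb and -2.69, -2.31 and -2.70 in the hypothalamus. They were -2.80 and -2.18 in the hippocampus and -2.51 and -2.48 in the cerebellum. All 3 olfactory bulb arrays lay above every other array, and the other 3 regions overlapped. The share of all probes with such a gap was not counted. The olfactory bulb mean was -1.19 ± 0.11 (SD of 3 arrays), against -2.57 ± 0.22 (SD of 3 arrays) in the hypothalamus, -2.49 ± 0.44 (SD of 2 arrays) in the hippocampus and -2.50 ± 0.02 (SD of 2 arrays) in the cerebellum. The hippocampus arrays were the widest apart.

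The olfactory bulb exceeded the hypothalamus 2.60-fold (1.38 log2 units, SE 0.18, adjusted p = 0.000871, limma), where 23.4% of all probes passed in either direction. It exceeded the hippocampus 2.46-fold (1.30, SE 0.20, adjusted p = 0.00259, limma; 20.3% of all probes passed) and the cerebellum 2.48-fold (1.31, SE 0.20, adjusted p = 0.00206, limma; 21.6% of all probes passed). Among hypothalamus, hippocampus and cerebellum no contrast passed. The hypothalamus minus hippocampus difference was -0.08 with a 95% interval from -0.54 to 0.38, so these arrays leave room for differences of that size. The excess of the olfactory bulb over the hypothalamus was 1.44 at scan time 1, 1.25 at scan time 2 and 1.45 at scan time 3. It was 1.41 under quantile normalization, 1.87 without scaling and 1.48 relative to the other named genes, and kept its call in each.

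G6pd2, the retroposed copy of the pentose phosphate gene, had a mean signal between 953.7 and 2239.9 over the scans. Its log2 levels were 0.57 and 0.51 in the cerebellum. They were -0.05, -0.11 and -0.07 in the hypothalamus, -0.17, -0.31 and -0.21 in the olfactory bulb and -0.29 and -0.27 in the hippocampus. Both cerebellum arrays lay above all others, and the hypothalamus arrays lay next below them, without overlap with olfactory bulb or hippocampus under this scaling. How many of all probes separate regions in this way was not counted. The means were 0.54 ± 0.05 (SD of 2 arrays) in the cerebellum, -0.07 ± 0.03 (SD of 3 arrays) in the hypothalamus, -0.23 ± 0.07 (SD of 3 arrays) in the olfactory bulb and -0.28 ± 0.01 (SD of 2 arrays) in the hippocampus.

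The cerebellum exceeded the hippocampus 1.77-fold (hippocampus minus cerebellum -0.82 log2 units, SE 0.09, adjusted p = 0.000411, limma), where 23.3% of all probes passed in either direction. It exceeded the olfactory bulb 1.71-fold (olfactory bulb minus cerebellum -0.77, SE 0.08, adjusted p = 0.000342, limma; 21.6% of all probes passed). It exceeded the hypothalamus 1.53-fold (hypothalamus minus cerebellum -0.61, SE 0.08, adjusted p = 0.00107, limma; 26.2% of all probes passed). The hypothalamus minus hippocampus difference of 0.21 did not pass (adjusted p = 0.160, limma; 16.9% of all probes passed), nor did the olfactory bulb minus hypothalamus difference of -0.16 (adjusted p = 0.198, limma). With scan time as a block both passed, at adjusted p-values of 0.0296 and 0.0327 (limma). The order of these 3 regions depended on the scaling. Without scaling all 3 olfactory bulb arrays (10.49, 10.33 and 10.33) lay above the hypothalamus arrays (10.07, 10.03 and 10.07), and olfactory bulb minus hypothalamus turned to 0.33 and passed (adjusted p = 0.00763, limma). Relative to the other named genes that difference was -0.06 and hypothalamus minus hippocampus 0.01, and neither passed (adjusted p = 0.612 and 0.949, limma). The cerebellum was highest under each scaling tried. Under the 75th percentile scaling the hypothalamus exceeded the hippocampus by 0.25 at scan time 1 and by 0.17 at scan time 2. Region alone accounted for 98.4% of the variance of G6pd2 over the 10 arrays and scan time alone for 3.55%.

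Gk, the glycerol kinase gene, had a mean signal between 2815 and 5868 over the scans. Its log2 levels were 1.86, 1.43 and 1.45 in the olfactory bulb and 1.82, 1.32 and 2.02 in the hypothalamus. They were 1.74 and 1.41 in the hippocampus and 1.55 and 1.28 in the cerebellum. All 4 regions overlapped, and replicate 2 was the lowest array of each. The means were 1.72 ± 0.36 (SD of 3 arrays) in the hypothalamus, 1.58 ± 0.24 (SD of 3 arrays) in the olfactory bulb, 1.57 ± 0.23 (SD of 2 arrays) in the hippocampus and 1.41 ± 0.19 (SD of 2 arrays) in the cerebellum. No neighbours in this order differed beyond their spread, and the test over the regions gave an adjusted p of 0.754 (limma). The hypothalamus minus cerebellum difference was 0.30 with a 95% interval from -0.24 to 0.85.

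The 20 copies of a probe are the same oligonucleotide at different places on 1 array, so their spread describes the measurement within an array and not the tissue. Gapdh copies spanned 1.04- to 1.12-fold within a scan. Gk copies spanned 2.67- to 12.2-fold, and their median SD over the scans, 0.522 log2 units with all copies kept, was the largest of the 15 named genes. Ldhal6b was next with 0.258, and G6pd2 had 0.153 and Gapdh 0.0254. Copies of Gk and Ldhal6b thus disagreed within an array far more than those of Gapdh.

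Most of the low copies lay toward 1 side of the array, which has 164 columns. Copies on the right side (columns above 82) exceeded those on the left side (columns up to 82) by 0.03 to 0.71 log2 units for Ldhal6b and by 0.06 to 0.41 for G6pd2, on all 12 scans in both cases. For Gk the difference ran from -0.04 to 1.78, with the right side higher on 10 scans and the 2 near-identical cerebellum scans just below 0. For Gapdh it ran from -0.02 to 0.04, with the right side higher on 6 scans. Of the other named genes, Tfrc, B2m, Gusb, Tbp and Nono also had the right side higher on all 12 scans. The rest had it higher on 1 scan (Rpl13a) to 10 scans (Hsp90ab1). The median over the scans was 0.23 for G6pd2, beside 0.21 for Tbp and 0.20 for Nono, and was 0.40 for Ldhal6b and 0.59 for Gk. Of the 20 places of a probe, 11 lay on the left side for Gk, 9 for Gapdh and 8 each for Ldhal6b and G6pd2. Among the places of Gk copies, 3 lay more than 0.5 log2 units below the median copy on all 12 scans. On at least 1 scan 12 did so, 8 of the 11 on the left side and 4 of the 9 on the right. For Ldhal6b 6 places did so on at least 1 scan and for G6pd2 5, all on the left side, and for Gapdh none did.

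**Figure D3:**
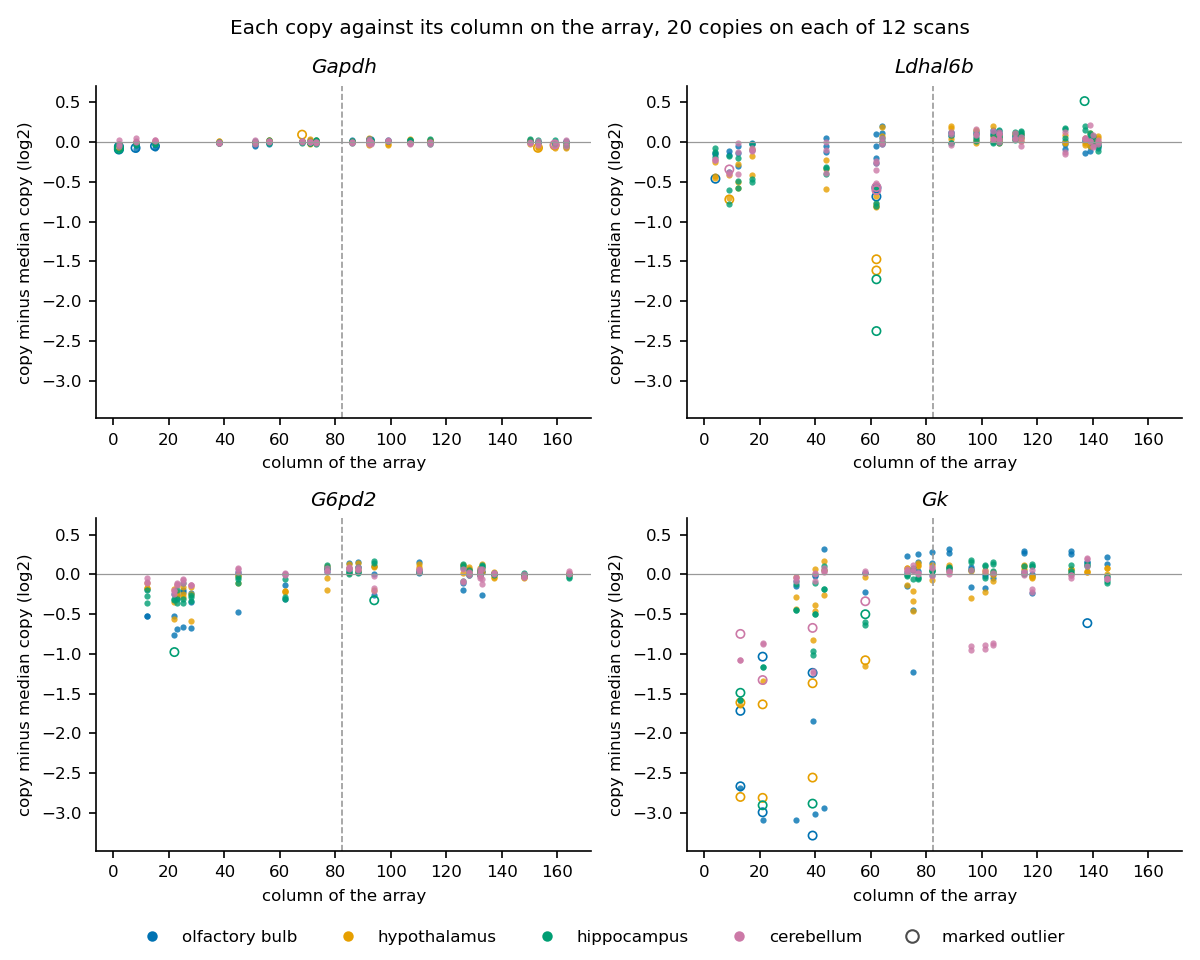
Each copy of the 4 probes on the 12 scans, as its log2 signal minus that of the median copy of the scan, against its column on the array. Colours are regions, open circles are copies marked as outliers by the scanner software, and the dashed line divides the sides. Gapdh copies stay near 0 across the array, while left-side copies of Gk reach down to -3.29 and those of Ldhal6b to -2.38.

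The pattern of high and low copies was nearly the same on near-identical scans and differed between the other scans. Between the 2 near-identical scans of a region the difference of the Gk copies, each taken against its median copy, had an SD of 0.0192 to 0.0212. Between other scans of the same region that SD was 0.187 to 1.21.

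The scanner software marked 22 of 240 Gk copies as outliers, 21 of them on the left side. It marked 12 of 240 for Ldhal6b (11 on the left side), 10 for Gapdh and 2 for G6pd2. The marks were uneven between scans: on replicates 1 and 2 of olfactory bulb and hypothalamus 3 or 4 Gk copies were marked, and on replicate 3 of both none was. Leaving out the marked copies raised the Gk level of a scan by up to 0.46 log2 units, as on replicate 2 of the olfactory bulb, and left it as it was where none was marked. The 2 lowest olfactory bulb levels of Gk, 1.43 and 1.45, thus came from 1 scan without its 3 marked copies and 1 scan with all copies kept, whose copies spanned 10.5-fold.

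The 4 genes were also read from 1 side of the array or from the median copy, alternatives of which the sides were chosen after seeing the data. The median of the unmarked copies gave Gk log2 levels of 1.88 ± 0.40 (SD of 3 arrays) in the olfactory bulb, 1.87 ± 0.46 (SD of 3 arrays) in the hypothalamus, 1.70 ± 0.39 (SD of 2 arrays) in the hippocampus and 1.55 ± 0.39 (SD of 2 arrays) in the cerebellum. Read this way the arrays fell together by replicate number. The mean was 1.89 for replicate 1, 1.40 for replicate 2 and 2.30 for replicate 3, counted here as scan times 1, 2 and 3. The hippocampus and cerebellum values under replicate 1 average scans of times 1 and 4. Those scans had Gk mean levels of 1.71 and 1.76 in the hippocampus and 1.53 and 1.57 in the cerebellum. The cause of the grouping was not tested. Over the 10 arrays, replicate number alone accounted for 97.1% of the variance of the median copy and region alone for 13.8%. Medians over all probes were 24.0% and 59.5% for the same shares. Replicate 3 of the 10 arrays holds only olfactory bulb and hypothalamus, so the shares of replicate number and region are not independent of each other.

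The right-side copies showed the same grouping of Gk. At scan time 3 the means of all right-side copies were 12.97 in the olfactory bulb and 12.49 in the hypothalamus on the log2 signal scale, against 11.19 and 11.88 for the left side. With marked copies left out, the right-side levels ran from 1.28 to 2.42 over the arrays, and replicate number alone accounted for 89.4% of their variance. With scan time as a block the hippocampus exceeded the cerebellum by 0.34 log2 units on the right side (adjusted p = 0.0413, limma), the only Gk contrast that passed under any setting tried, while the test over the 4 regions did not pass (adjusted p = 0.112, limma).

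**Figure D4:**
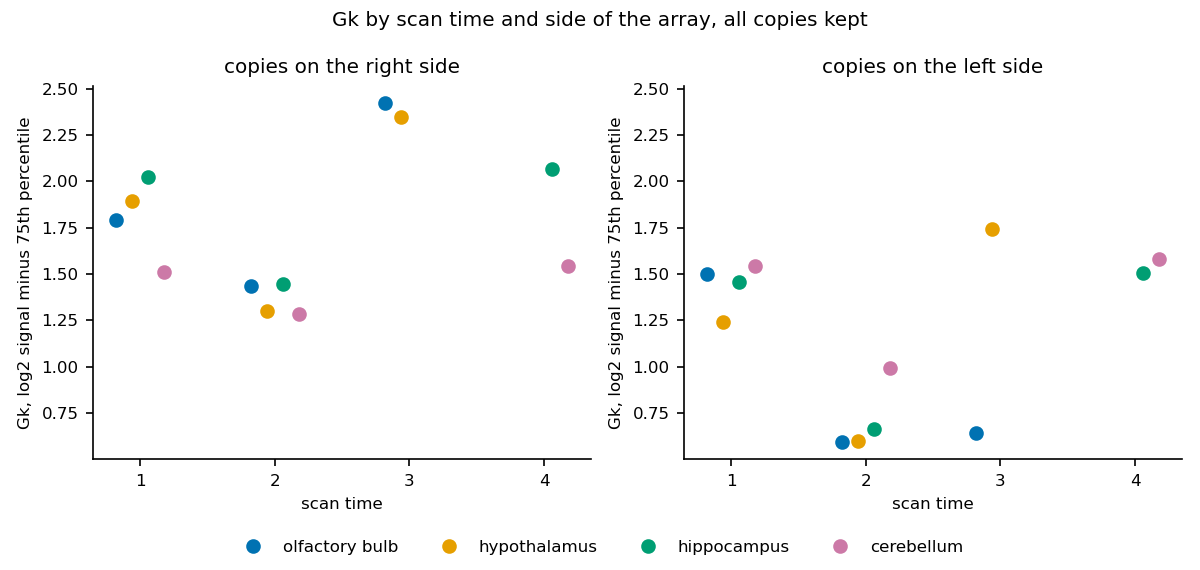
Log2 level of Gk by scan time, from the copies on the right side (left panel) and the left side (right panel) of the array, with all copies kept. Points are the 12 scans, coloured by region. In the right side the 4 scans of time 2 lie lowest and the 2 of time 3 highest, and on the left side the olfactory bulb scan of time 3 lies near those of time 2.

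Position on the array did not change which region led for Ldhal6b or G6pd2. When each of the 20 places was compared with itself between regions, the olfactory bulb exceeded hypothalamus, hippocampus and cerebellum for Ldhal6b at 20 of 20 places. The excess over the hypothalamus averaged 1.27 log2 units on the right side and 1.63 in the left. The cerebellum exceeded each other region for G6pd2 at 20 of 20 places, with a mean hippocampus minus cerebellum difference of -0.78 on the right side and -0.96 in the left. For Gapdh the hypothalamus exceeded the olfactory bulb at 20 of 20 places, by 0.16 to 0.29, under this scaling only. Between region means that difference was 0.01 under quantile normalization and -0.26 without scaling. For Gk the olfactory bulb exceeded the hypothalamus at 10 places and lay below it at 10. Places on an array share their RNA and hybridisation, so these counts carry no test.

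Differences between 2 of the probes within an array need no scaling, since any factor common to the array cancels. Of the 6 pairs, 3 differed between regions in an exact permutation test over 25200 assignments of the 10 arrays (1-sided in the F statistic, Benjamini-Hochberg over the 6 pairs, smallest possible unadjusted p 0.000159). Each of the 3 held Ldhal6b or G6pd2, which passed the region test on the same arrays, so they are not separate results. Other pairs of probes were not tested, so no share over the array stands beside this count. Ldhal6b minus G6pd2 was -0.95 ± 0.18 (SD of 3 arrays) in the olfactory bulb, -2.20 ± 0.42 (SD of 2 arrays) in the hippocampus, -2.49 ± 0.25 (SD of 3 arrays) in the hypothalamus and -3.04 ± 0.07 (SD of 2 arrays) in the cerebellum (exact permutation, adjusted p = 0.00762). Olfactory bulb and cerebellum thus stood 2.08 log2 units apart, the largest shift of any pair. Gapdh minus G6pd2 was 7.27 ± 0.13 (SD of 2 arrays) in the hippocampus, 7.10 ± 0.07 (SD of 3 arrays) in the hypothalamus, 7.03 ± 0.01 (SD of 3 arrays) in the olfactory bulb and 6.26 ± 0.11 (SD of 2 arrays) in the cerebellum (exact permutation, adjusted p = 0.00762).

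Gapdh minus Ldhal6b was 7.99 ± 0.19 (SD of 3 arrays) in the olfactory bulb, 9.59 ± 0.30 (SD of 3 arrays) in the hypothalamus, 9.47 ± 0.56 (SD of 2 arrays) in the hippocampus and 9.30 ± 0.17 (SD of 2 arrays) in the cerebellum (exact permutation, adjusted p = 0.0206). This call was lost when permuting within replicate numbers (exact permutation, adjusted p = 0.0521) and on leaving out replicate 1, 2 or 3 of the olfactory bulb or replicate 2 of the cerebellum (exact permutation, adjusted p = 0.0886, 0.102, 0.102 and 0.0659). The size of the shift stayed between 1.49 and 1.77 log2 units on leaving out any 1 array. The 3 pairs with Gk did not pass: adjusted p was 0.0550 with Ldhal6b, 0.0632 with G6pd2 and 0.809 with Gapdh (exact permutation). Ldhal6b minus Gk passed under 5 of 17 alternatives: all 12 scans (exact permutation, adjusted p = 0.0185), left-side copies (0.0383), and leaving out hypothalamus replicate 2 (0.0250), hippocampus replicate 1 (0.0381) or hippocampus replicate 2 (0.0375). G6pd2 minus Gk passed with all 12 scans (exact permutation, adjusted p = 0.0185), where near-identical scans count separately. Gapdh minus Gk ranged from 5.22 in the olfactory bulb to 5.41 in the hippocampus.

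**Figure D5:**
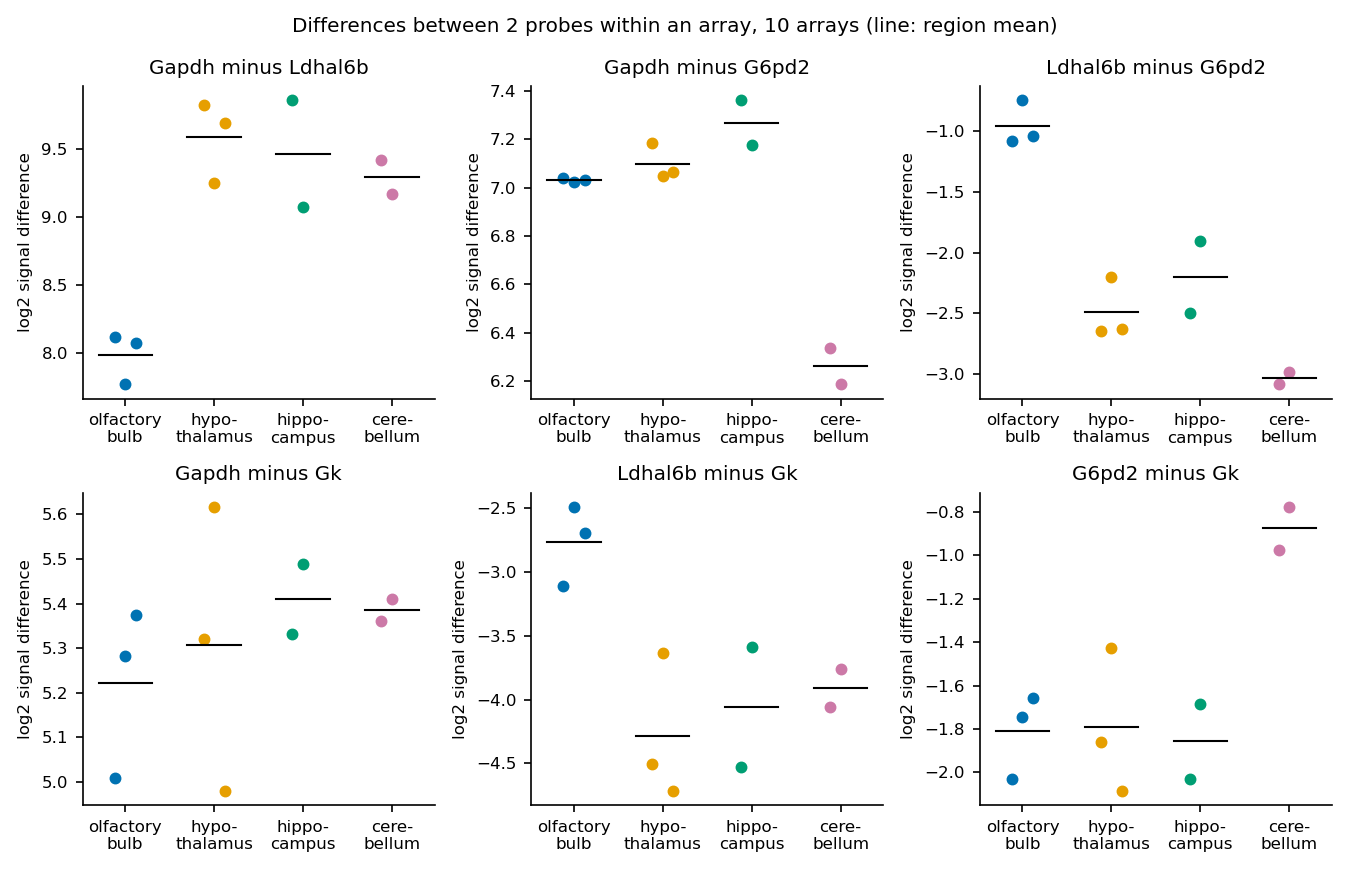
Difference in log2 signal between 2 probes on the same array, for the 6 pairs of the 4 genes, by region. Points are the 10 arrays and lines are region means. The olfactory bulb stands apart in the pairs with Ldhal6b and the cerebellum in the pairs with G6pd2, and Gapdh minus Gk overlaps in all regions.

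The genes whose pattern was most like each member were taken by Pearson's r over the 10 arrays, as a description, since the arrays share scans and scaling. Of the other named genes Gapdh was most like Tuba1b (r = 0.78) and Hprt (r = 0.77) and least like Ldhal6b (r = -0.62). Ldhal6b was most like B2m (r = 0.69) and Gusb (r = 0.48) and least like Hsp90ab1 (r = -0.84). G6pd2 was most like Tbp (r = 0.71) and Hsp90ab1 (r = 0.56) and least like Actb (r = -0.87). Gk was most like Rpl13a (r = 0.67) and Gapdh (r = 0.64) and least like Ldhal6b (r = -0.23). No 2 of the 4 metabolic genes had an r above that of Gapdh and Gk.

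Among the 56479 probes with a value on all 10 arrays, the closest to each member were known by array ID only. For Ldhal6b the closest was ASMM10P029164 (r = 0.99), with a mean log2 level of -1.76 ± 0.07 (SD of 3 arrays) in the olfactory bulb against -3.69 ± 0.23 (SD of 3 arrays) in the hypothalamus, and then ASMM10P052484 (r = 0.98). For G6pd2 it was ASMM10P007558 (r = 0.996), with 1.11 ± 0.13 (SD of 2 arrays) in the cerebellum against -0.36 ± 0.06 (SD of 2 arrays) in the hippocampus, and then ASMM10P031228 (r = 0.99). For Gapdh it was ASMM10P029562 (r = 0.99), with 4.54 ± 0.10 (SD of 3 arrays) in the hypothalamus and 4.28 ± 0.11 (SD of 3 arrays) in the olfactory bulb, and then ASMM10P035859 (r = 0.99). For Gk the closest reached only 0.93, ASMM10P047739, followed by MM9LINCRNAEXON11660+_P1 with 0.92.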

How the data were processed

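The deposited files are Agilent scanner tables, 1 per scan, made with Agilent Feature Extraction 11.0.1.1 per the submitters' processing notes. They hold spot intensity values and, per the file headers, processed signals that the software had background-corrected. The authors also deposited a table of log2 values, which holds none of the 4 probes and was used only to look for them. Other spot columns (outlier and background marks) were used as the deposited files give them, each as a mark with no scale or score.

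Negative control probes were left out. Processed signals were put on the log2 scale, copies without outlier marks were averaged, and the 75th percentile of each scan was subtracted. Near-identical scans were averaged and counted once. A probe was tested if some region had it well above background on each of its scans. limma 3.58.1 in R 4.3.3 fitted the 4 regions with 6 residual degrees of freedom, and p-values were adjusted over all probes. Within-array differences were tested by exact permutation in Python 3.11.15 with numpy 2.4.6. The number of arrays limits the precision. Alternatives covered the scaling, background correction, filter, copies, blocks, near-identical scans and each array left out. The members and lists were chosen with earlier results of these data known. The text names all 4 members, the named genes with the 2 highest and 1 lowest r with each, and the 2 closest other probes. Other genes of the pathways were not analysed here, since the remaining probes carry only array IDs. Probe sequences were not used here.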

Additional observations from a re-analysis of the deposited data

How the results depend on the processing

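The region tests of Ldhal6b and G6pd2, and their 6 called contrasts, kept their direction and call under all 29 alternatives. The 5 alternatives on the side of the copies and outlier marks were chosen after seeing the data. The Ldhal6b olfactory bulb minus hypothalamus difference ran from 1.31 to 1.51 on leaving out 1 array and from 1.18 to 1.87 over all alternatives, and the G6pd2 cerebellum minus hippocampus difference from 0.79 to 0.86 and from 0.77 to 1.12. For Gapdh hypothalamus minus olfactory bulb turned to -0.26 without scaling and to -0.015 with right-side copies and quantile normalization, and ran from 0.17 to 0.27 on leaving out 1 array. Relative to the other named genes it was 0.12 and did not pass (adjusted p = 0.117, limma), while the Gapdh test over the 4 regions gained a call there. For Gk hypothalamus minus cerebellum turned to -0.13 without scaling and ran from 0.16 to 0.50 on leaving out 1 array. It passed under none of the 29. The cause of these shifts was not tested.

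Samples of the same replicate number deviated together with correlations from 0.0934 to 0.747 (median 0.465, 13 pairs), against -0.733 to 0.381 for different numbers (median -0.279, 24 pairs). Deviations were taken from the mean of each region, so those of the 2 hippocampus or 2 cerebellum arrays are exact opposites. The negative values for different numbers are thus largely set by that centring, and several pairs repeat the value of another. The positive values for the same number describe shared deviations and carry no test. Whether arrays of 1 number share an animal is not given by the labels. With the replicate block the Gapdh test gained a call, with that difference at 0.22 (also with all 12 scans and a block for scan time or replicate, 0.22 both, and at 0.21 with right-side copies). Of the 24 pairwise contrasts of the members 6 were called, 12 with the replicate block and with each block over 12 scans, 13 with the block and right-side copies, 9 without scaling, 7 relative to the other named genes and with all 12 scans unblocked, and 6 with any 1 array left out. The 9 without scaling include Gapdh and G6pd2 olfactory bulb minus hypothalamus, both opposite in sign to the blocked calls. All-probe calls rose from 20407 to 30539 with the block, 34783 and 34101 over 12 scans with a scan-time and a replicate block, and 31289 without scaling, and fell to 17152 to 19916 with 1 array left out. Of the 6 within-array pairs 3 were called, 5 with all 12 scans, which count near-identical scans separately, and 2 to 4 with 1 array left out. The authors' value table was not run, since it holds none of the 4 probes. All copies of the 4 genes were well above background on every scan.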

Other observations

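Control probes labelled for mouse Pgk1, the glycolytic enzyme that follows Gapdh, gave values that belong to no comparison above. The probe labelled for the 3′ end had log2 levels of 5.41 ± 0.08 (SD of 3 arrays) in the olfactory bulb, 5.58 ± 0.08 (SD of 3 arrays) in the hypothalamus, 5.55 ± 0.10 (SD of 2 arrays) in the hippocampus and 5.63 ± 0.12 (SD of 2 arrays) in the cerebellum. The probe labelled for the 5′ end had -1.97 ± 0.20 (SD of 3 arrays), -1.64 ± 0.23 (SD of 3 arrays), -1.62 ± 0.27 (SD of 2 arrays) and -1.93 ± 0.28 (SD of 2 arrays) in the same order. The olfactory bulb had the lowest mean with both probes, and the cerebellum was highest with the first and next to lowest with the second. Control probes labelled for the 5′ end of human and rat Gapdh had their highest means in the hippocampus, at 1.30 ± 0.09 (SD of 2 arrays) and 3.02 ± 0.09 (SD of 2 arrays), where the probe for the 5′ end of mouse Gapdh had 4.96 ± 0.02 (SD of 2 arrays) and did not exceed the hypothalamus. Their lowest means were in the hypothalamus, at 0.99 ± 0.05 (SD of 3 arrays) and 2.66 ± 0.08 (SD of 3 arrays). The probe labelled for the 3′ end of human Gapdh had means of 5.26 in the olfactory bulb, 5.34 in hypothalamus and hippocampus and 5.35 in the cerebellum. That for the 3′ end of rat Gapdh had 0.67 in the olfactory bulb, 0.78 in the hypothalamus, 0.79 in the hippocampus and 0.65 in the cerebellum.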
